A study of Mus musculus with 8 samples.

Results

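A set of 10 named genes of macrophages, Csf1r, Cd68, Mrc1, Cd163, Siglec1, Marco, Lyz2, Spic, Timd4 and Hmox1, were examined in 8 RNA-seq libraries of mouse bone marrow. They were taken by symbol from a list that was drawn up with earlier results of these data known, and 49315 genes were counted in all. By the labels, the libraries were made from wild type C57BL/6J mice, 6 weeks old. The methods of the study name C57BL/6JJcl mice and a wider range of ages. They comprised 7 sorted stromal populations, named cluster 1 to cluster 7 after single-cell clusters of the same study, and 1 library of input bone marrow cells, with 1 library each. No treatment or allele distinguished the libraries. All 7 gates took cells without CD31, CD45 and Ter119, the surface antigens of endothelial cells, leukocytes and erythroid cells. Within that fraction cluster 1 was CD24-, Sca-1+ and CD39+, cluster 2 was negative for Ly-6C, CD39 and CD24, and cluster 3 was Ly-6C+ and CD24+ without CD39 and CD54. Cluster 4 was CD54+ without Ly-6C and CD24, cluster 5 was CD54+ without CD24, Ly-6C and CD121b, cluster 6 was CD24+ without Sca-1 and CD39, and cluster 7 was Sca-1+ without CD54, CD24 and Ly-6C. The number of animals pooled for each library and the cells held by the input are not given in the sources used here.

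Macrophages of bone marrow clear dying cells and the nuclei shed by erythroblasts, recycle haem iron, and contact the stromal cells that hold blood stem cells. CSF1R, the receptor for CSF1 and IL-34, keeps the lineage alive, and the transcription factor PU.1 (encoded by Spi1) switches on much of its programme. CD169 (Siglec1), CD163, MARCO, MRC1 and TIM-4 (Timd4) sit on the surface of resident macrophages and bind sialylated glycans, haemoglobin bound to haptoglobin, particles, mannosylated glycans and phosphatidylserine. Spic encodes the transcription factor of macrophages that recycle iron, and Hmox1 the enzyme that opens the haem ring. CD68 is a glycoprotein of lysosomes and Lyz2 encodes lysozyme M. Both are also made by monocytes, and Lyz2 strongly by neutrophils, and Hmox1 is induced by haem and oxidative stress in many kinds of cell.

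Levels are given as RPKM, reads per kilobase of exon, scaled to the reads counted on all genes in units of 1e+06, with exact Poisson 95% intervals where printed. The libraries held 24205863, 25349917, 27102715, 32549319, 12833648, 31669132 and 33238133 counts for clusters 1 to 7 and 20162876 counts for the input. Because each population had 1 library, no difference between populations could be tested, and every interval covers counting error only. The cluster 5 library was the shallowest, and 3 genes, Rn18s-rs5, Lars2 and mmu-mir-689-2, took 34.8% of its counts, against 0.274% to 10.4% in the other sorted libraries and 0.188% in the input. These 3 genes take up counts in the denominator of RPKM, so values of cluster 5 are also given below as ratios within the library. In bulk RNA, fewer cells of a type and less RNA per cell cannot be told apart.

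Of the 10 genes, 4 carried nearly all the reads of the set in the sorted libraries, and the remaining 6 stayed below 1 RPKM there. Cd68, Lyz2 and Hmox1 had RPKM above 2 in all 7 sorted libraries, and Csf1r in 6 of them, missing only in cluster 2. The study used this level to select genes for its clustering and principal component plot. The count above 2 was thus 3 of 10 in cluster 2, where 23.8% of all genes with a count in any library passed. It was 4 of 10 in clusters 1, 3, 4, 5, 6 and 7, where 25.1%, 23.1%, 23.5%, 20.8%, 21.6% and 24.4% of genes passed. In the input 5 of 10 passed, with Siglec1 added, against 42.0% of all genes. Mrc1, Cd163, Siglec1, Marco, Spic and Timd4 stayed at or below 0.876 RPKM in every sorted library. Genes in general were also lower in the sorted libraries with total counts. The median log2 ratio of RPKM + 1 to the input, over all genes tested, was negative for all 7 clusters. Cluster 7 was nearest to the input, at -0.60, and cluster 5 farthest, at -1.24. How many of all genes were highest in the input was not counted. The highest level was in the input for 8 of the 10 genes, the exceptions being Hmox1 and Cd163, when libraries were scaled by total counts. With edgeR's trimmed mean of M values (TMM) as the scaling it was in the input for 5, since Csf1r and Lyz2 in cluster 7 and Mrc1 in cluster 5 then had the highest value, at 1.004, 1.002 and 1.49 times the input, and Siglec1 in the input was at 1.78 RPKM.

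**Figure D1:**
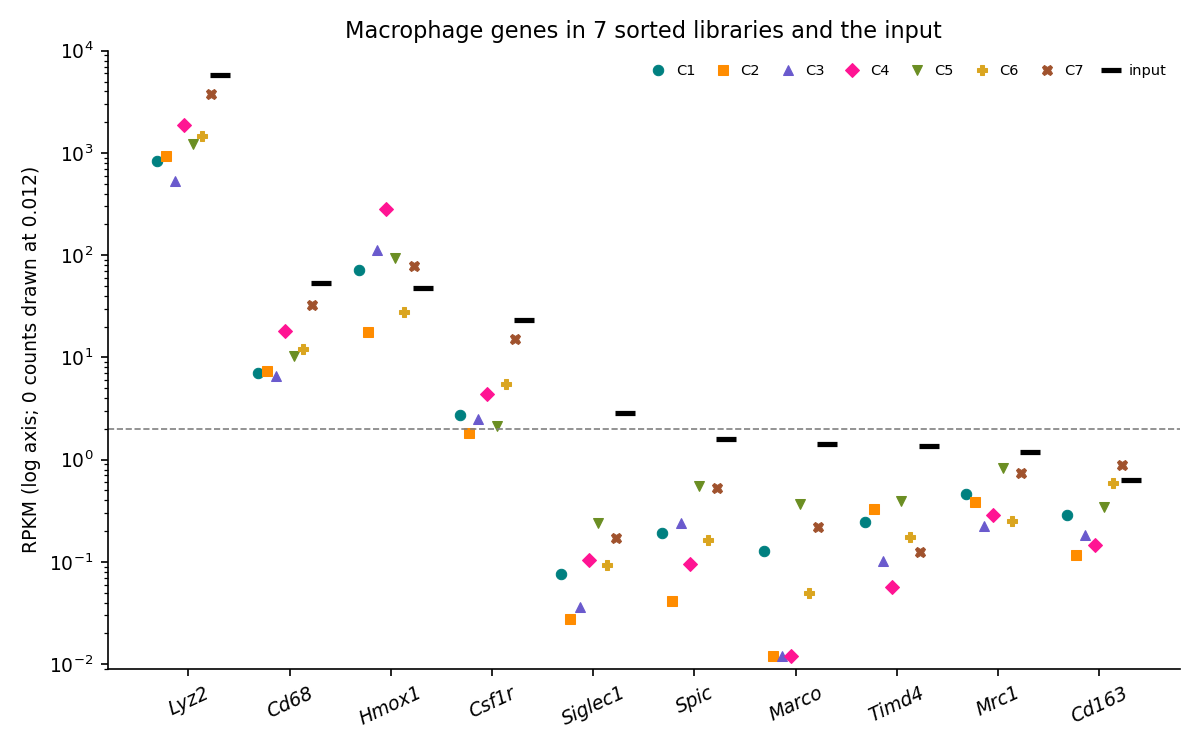
RPKM on a log axis of the 10 genes, ordered by their level in the input, with 1 symbol per library (C1 to C7 are clusters 1 to 7, the bar is the input, and the dashed line is RPKM 2). Lyz2, Cd68, Hmox1 and Csf1r lie above the line in nearly all libraries, while the other 6 genes lie below it in every sorted library.

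Csf1r (ENSMUSG00000024621, GRCm38 chromosome 18, 61105572 to 61132149, plus strand) encodes the receptor tyrosine kinase on which macrophages depend. Its level was 2.71, 1.81, 2.49, 4.396, 2.14, 5.55 and 15.0 RPKM in clusters 1 to 7, and 23.1 RPKM in the input. Cluster 7 stood apart at 2.71 times cluster 6 (95% interval 2.51 to 2.94), the next library, and cluster 6 was 1.26 times cluster 4 (1.14 to 1.40). Cluster 4 was 1.62 times cluster 1 (1.42 to 1.85). Clusters 1, 3, 5 and 2 followed in that order, and the 3 ratios between neighbours among these 4 each had an interval that included 1. From cluster 2 to cluster 7 the level spanned 8.32-fold (7.25 to 9.58). Exons of Csf1r overlap those of Hmgxb3 on the opposite strand, and whether reads were counted by strand is not given in the sources used here, so reads of the 2 genes cannot be told apart there.

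Both ligands of the receptor had RPKM above 2 in stromal libraries, and their order was another. Csf1 was at 35.8, 5.66, 74.7, 35.3, 12.5, 6.61 and 25.1 RPKM in clusters 1 to 7, with 17.97 in the input. Cluster 3, which lay below 4 other sorted libraries for the receptor, had the highest level of this ligand, at 13.2 times cluster 2 (12.3 to 14.2). Il34 was at 8.39, 2.11, 9.12, 8.30, 3.06, 1.499 and 8.28 RPKM in clusters 1 to 7 and at 5.52 in the input. It was thus also highest in cluster 3, close to clusters 1, 4 and 7, and lowest in cluster 6. Over the 7 sorted libraries, the Pearson correlation of log2(RPKM + 1) between Csf1r and Csf1 was 0.0797, as a description of 7 points that differ in depth and in the genes that fill each library.

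Cd68 (ENSMUSG00000018774, GRCm38 chromosome 11, 69664213 to 69666153, minus strand) encodes a heavily glycosylated membrane protein of late endosomes and lysosomes. The sorted libraries of clusters 1 to 7 held 7.07, 7.31, 6.55, 18.3, 10.2, 12.2 and 32.4 RPKM of it, and the input 53.5 RPKM. Cluster 7 was again highest, at 1.77 times cluster 4 (1.62 to 1.94) and 4.94 times cluster 3 (4.29 to 5.72). Clusters 2, 1 and 3 formed a low group whose neighbours did not differ beyond counting error, and the interval of the ratio of cluster 6 to cluster 5 also included 1 (0.996 to 1.43).

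Lyz2 (ENSMUSG00000069516, GRCm38 chromosome 10, 117277334 to 117282274, minus strand) encodes the bacteria-degrading lysozyme of myeloid cells and was the most abundant gene of the set. Clusters 1 to 7 had 829, 937, 529, 1860.4, 1216, 1466 and 3738 RPKM, and the input 5756 RPKM. Its 18162 to 157311 reads per sorted library made up 0.0670% to 0.473% of all counts, and 0.729% in the input. With so many reads every step in the order cluster 7, 4, 6, 5, 2, 1 and 3 exceeded counting error, the smallest being cluster 2 over cluster 1 at 1.13-fold (1.11 to 1.15). Cluster 7 was 2.01 times cluster 4 (1.99 to 2.03) and 7.06 times cluster 3 (6.96 to 7.17).

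**Figure D2:**
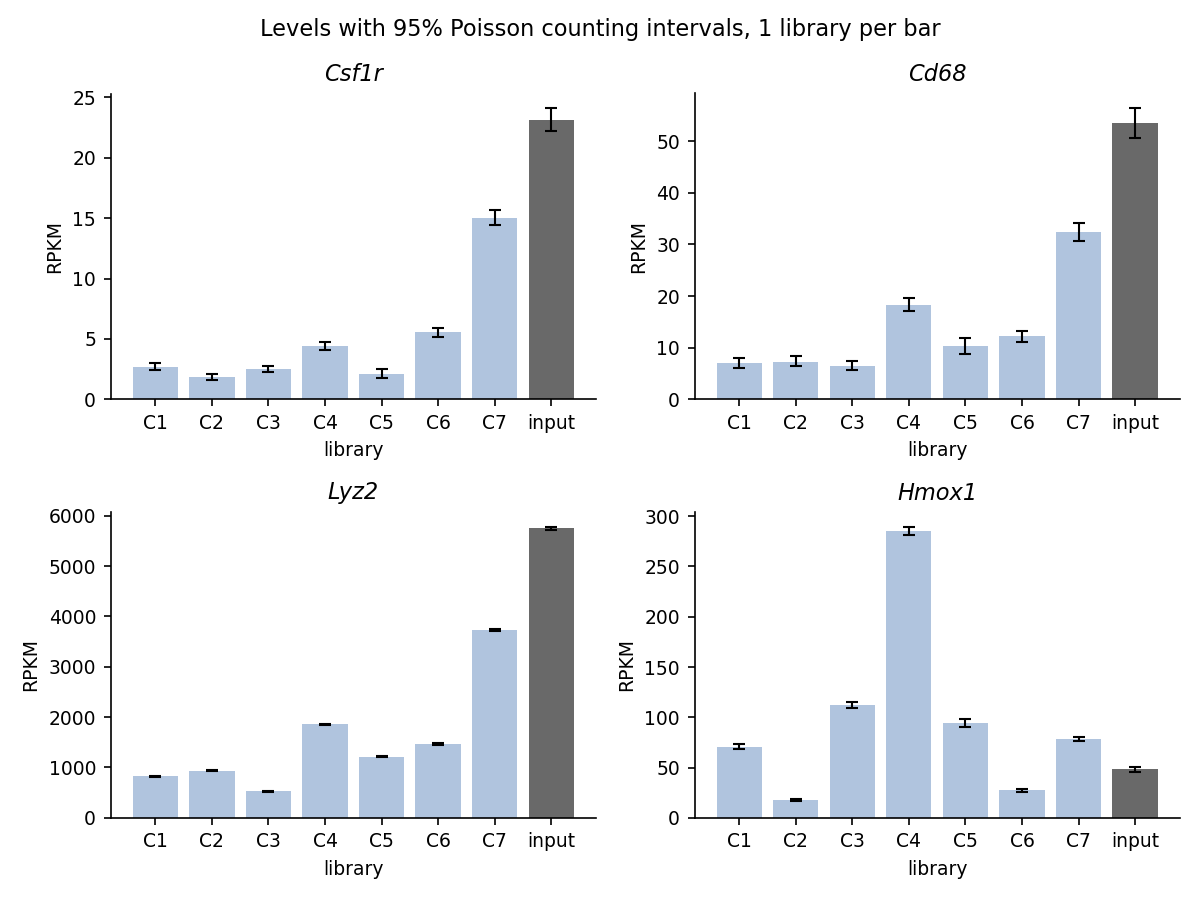
RPKM of Csf1r, Cd68, Lyz2 and Hmox1 in each library, with bars from 0 and 95% Poisson intervals of the count (C1 to C7 are clusters 1 to 7). With total-count scaling the first 3 genes are highest in the input and, among sorted libraries, in cluster 7, whereas Hmox1 peaks in cluster 4 at 285 RPKM.

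Lyz2 has a close relative in Lyz1, the lysozyme of intestinal Paneth cells, and the 2 coding sequences are shown in part because reads could be assigned to the wrong copy. In the GENCODE vM1 transcripts both coding sequences have 447 bases, of which 425 are identical (95.1%), and the longest identical run is 118 bases. Bases 43 to 132 of each coding sequence hold 13 of the 22 differences, given in capitals.
Lyz1: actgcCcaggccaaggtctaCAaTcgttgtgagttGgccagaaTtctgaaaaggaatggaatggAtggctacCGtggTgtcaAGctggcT
Lyz2: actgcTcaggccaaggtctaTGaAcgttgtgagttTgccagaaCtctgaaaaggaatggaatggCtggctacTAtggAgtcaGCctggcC
None of the 298 windows of 150 bases, the read length, was identical in the coding sequences. Lyz1 took 0.399% of the reads of both genes in the input (exact binomial 95% interval 0.367 to 0.432) and at most 0.787% in cluster 3 (0.664 to 0.925). Its level was 5.03, 4.84, 4.20, 11.98, 7.21, 9.02 and 20.1 RPKM in clusters 1 to 7 and 23.1 in the input, in nearly the same order as that of Lyz2, and how much of it came from misassigned reads was not tested.

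Hmox1 (ENSMUSG00000005413, GRCm38 chromosome 8, 75093621 to 75100589, plus strand) encodes haem oxygenase 1, which converts haem to biliverdin, carbon monoxide and iron, and its order of libraries was different. Its levels in clusters 1 to 7 were 70.9, 17.9, 112, 285, 94.5, 27.5 and 78.4 RPKM, against 48.2 RPKM in the input. Clusters 2 and 6 lay below the input and the other sorted libraries above it, and with TMM cluster 6 was above it as well, at 1.18 times the input. Cluster 4 was 2.55 times cluster 3 (2.47 to 2.63) and 15.9 times cluster 2 (14.8 to 17.1), and each step in the order exceeded counting error.

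Between the highest and the lowest sorted library all 4 genes above 2 RPKM differed by more than 2-fold in RPKM + 1, but so did 70.6% of all genes tested. Cluster 7 was the highest sorted library for Csf1r, Cd68 and Lyz2, and cluster 4 for Hmox1. Clusters 1 to 7 were the highest library for 21.3%, 22.8%, 9.85%, 8.95%, 4.73%, 7.10% and 25.3% of all genes tested. The lowest library was cluster 2 for Csf1r and Hmox1 and cluster 3 for Cd68 and Lyz2. Clusters 1 to 7 were the lowest library for 3.82%, 7.25%, 8.11%, 4.40%, 46.3%, 25.5% and 4.59% of genes, so that cluster 5, most often the lowest, was so for none of the 4. Expression specific to 1 population was counted where RPKM was above 2 and RPKM + 1 more than 2-fold above each other sorted library. Hmox1 was specific to cluster 4 by this rule, as were 0.376% of the genes above 2 RPKM there, and Csf1r and Lyz2 were specific to cluster 7, as were 0.962%. In RPKM + 1, Hmox1 in cluster 4 was 2.54 times cluster 3, Csf1r in cluster 7 was 2.45 times cluster 6, and Lyz2 in cluster 7 was 2.01 times cluster 4, at the threshold itself. Both calls of cluster 7 were lost with TMM, at 1.91 for Csf1r and 1.89 for Lyz2. When the 3 genes that filled cluster 5 were left out of the total, Hmox1 in cluster 4 was 1.98 times cluster 5 and Lyz2 in cluster 7 was 1.99 times cluster 4, so that these 2 calls were lost. In clusters 1, 2, 3, 5 and 6 none of the 10 genes was specific, with 0.371%, 1.61%, 0.736%, 2.54% and 0.443% of genes.

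The gate should remove CD45-positive leukocytes, so their general markers were examined in the same libraries. Ptprc, which encodes CD45, was at 2.92, 2.58, 1.69, 2.76, 1.80, 4.02 and 9.26 RPKM in clusters 1 to 7 and at 13.5 in the input. It was therefore detected in every sorted library, with 422 to 5634 reads, and was highest in cluster 7. The 5 leukocyte markers Ptprc, Cd53, Coro1a, Lcp1 and Cd52 were all highest in cluster 7 and lowest in cluster 3 among the sorted libraries. Coro1a, an actin regulator of leukocytes and the most abundant of them, ranged from 42.1 to 171 RPKM with a median of 66.2. Cd53, a tetraspanin, had the widest range, measured for each list as the ratio of RPKM + 1 between the highest and the lowest sorted library, from 20.2 to 132 RPKM. The summed RPKM of the 5 genes was 22.4%, 23.3%, 14.9%, 30.2%, 24.7%, 29.98% and 66.01% of the input in clusters 1 to 7. That of the 10 macrophage genes was 15.5%, 16.4%, 11.1%, 36.8%, 22.5%, 25.7% and 65.7%. In the input Lyz2 held 5756 of the 5890 RPKM of the latter sum, so these percents chiefly describe Lyz2. Hmox1, by contrast, was above the input in cluster 4, at 285 against 48.2 RPKM. With TMM both sums in cluster 7 were above the input, at 472 against 463 RPKM for leukocyte markers and 3737 against 3688 for macrophage genes. None of the 5 leukocyte markers was at 0 counts in any library.

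Divided by Ptprc in the same library, a ratio that does not depend on how a library is scaled, Csf1r, Cd68 and Lyz2 had a narrower range. The ratio of Csf1r to Ptprc was 0.931, 0.702, 1.48, 1.59, 1.19, 1.38 and 1.63 in clusters 1 to 7 and 1.72 in the input, a 2.32-fold range over sorted libraries in place of 8.32. For Cd68 it was 2.42, 2.84, 3.88, 6.63, 5.70, 3.03 and 3.496, with 3.97 in the input and a range of 2.74-fold in place of 4.94. For Lyz2 it was 284, 364, 314, 674, 677, 365 and 404, with 428 in the input and a range of 2.38-fold in place of 7.06. Cluster 7 was thus no longer the highest for Cd68 and Lyz2, for which clusters 4 and 5 held the highest values. For Lyz2 these 2 lay close together, and with 422 reads of Ptprc in cluster 5 their order is not resolved. Hmox1 kept its spread, with ratios of 24.3, 6.94, 66.2, 103, 52.6, 6.85 and 8.46, a 15.1-fold range, and 3.58 in the input, below every sorted library. Among the low genes, from few reads, the range widened for Mrc1, Siglec1, Spic and Timd4, to 7.25-fold, 12.5-fold, 19.1-fold and 16.3-fold. Undivided, it was 3.63-fold, 8.69-fold, 13.3-fold and 6.97-fold. For Cd163 it narrowed, to 4.25-fold in place of 7.58, and Marco, with libraries at 0 counts, had no such range. The part of remaining leukocytes in these levels was not tested.

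**Figure D3:**
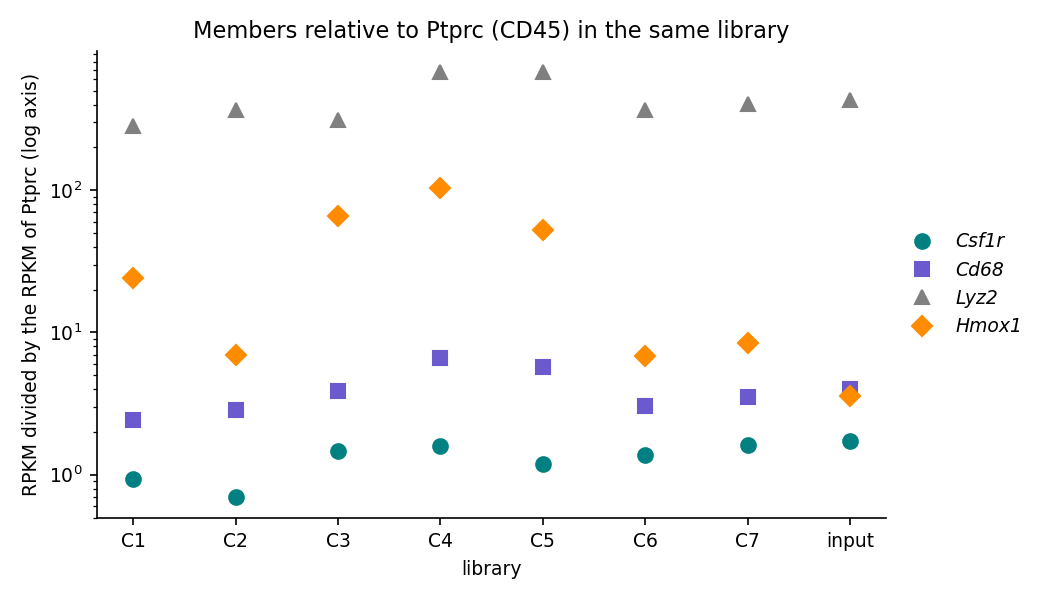
RPKM of Csf1r, Cd68, Lyz2 and Hmox1 divided by the RPKM of Ptprc in the same library, on a log axis (C1 to C7 are clusters 1 to 7). Csf1r, Cd68 and Lyz2 vary by 2.32-fold to 2.74-fold among sorted libraries and Hmox1 by 15.1-fold.

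Over the 7 sorted libraries, described with no test, Csf1r, Cd68 and Lyz2 followed each other and other genes of myeloid cells. These correlations use log2(RPKM + 1), and all points share the effect of depth and of the genes that fill each library. Pearson's r was 0.904 between Csf1r and Cd68, 0.859 between Csf1r and Lyz2 and 0.969 between Cd68 and Lyz2. With Ptprc it was 0.935 for Csf1r, 0.812 for Cd68 and 0.837 for Lyz2, and -0.14 for Hmox1. With Spi1 it was 0.961, 0.952, 0.937 and 0.221 for Csf1r, Cd68, Lyz2 and Hmox1. Spi1 itself was at 13.1, 9.98, 9.25, 18.3, 11.4, 16.1 and 34.0 RPKM in clusters 1 to 7 and at 36.5 in the input. Among 11406 genes, the 3 most like Csf1r were Fcgr3 (r = 0.996), an Fc receptor of myeloid cells, 6530402F18Rik (0.993) and Cnr2 (0.988), a cannabinoid receptor of leukocytes. Those most like Cd68 were Lyz1 (0.995), Pnpla7 (0.991) and Chi3l7 (0.990), and those most like Lyz2 were Plbd1 (0.995), Cfp (0.995), which encodes properdin, and ENSMUSG00000096719 (0.992). For Hmox1 they were Dedd2 (0.969), Slc22a18 (0.928) and Ccdc86 (0.917), and none of the 3 remained among the nearest when cluster 5 was left out, whereas 3, 3 and 2 remained for Csf1r, Cd68 and Lyz2.

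In the RefSeq table of promoters for GRCm38.p6, 7 of the 10 genes were found, the others being Csf1r, Siglec1 and Hmox1. The 250 bases before each start were searched on both strands for GAGGAA, the core of the motif bound by PU.1 (TTCCTC on the opposite strand). It occurred in 3 of the 7, Cd68, Mrc1 and Marco, and in 23.3% of 32851 promoters. The promoters of Cd68, which was above 2 RPKM in every library, and of Mrc1, which held the most copies and was low in every sorted library, are shown with these letters in capitals. They lie at chr11:69666171-69666420 on the minus strand and chr2:14229164-14229413 on the plus strand.
Cd68: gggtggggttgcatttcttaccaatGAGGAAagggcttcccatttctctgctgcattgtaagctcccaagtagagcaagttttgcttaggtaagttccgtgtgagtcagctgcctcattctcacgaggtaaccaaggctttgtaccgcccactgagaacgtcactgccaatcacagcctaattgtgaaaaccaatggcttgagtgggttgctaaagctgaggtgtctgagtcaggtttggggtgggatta
Mrc1: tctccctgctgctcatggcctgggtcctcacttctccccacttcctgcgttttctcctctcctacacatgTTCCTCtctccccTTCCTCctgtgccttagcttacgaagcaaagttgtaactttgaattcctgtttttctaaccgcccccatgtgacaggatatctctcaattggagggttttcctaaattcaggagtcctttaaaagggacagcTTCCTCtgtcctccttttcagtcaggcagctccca
The copy of Cd68 begins 225 bases before the start, and those of Mrc1 begin 180, 167 and 35 bases before it. The search also covered TTGCNNAA of C/EBP factors (in 9.56% of all promoters), TGACTCA of AP-1 (4.46%), the antioxidant response element TGACNNNGC (10.2%) and the E-box CACGTG (6.02%). Cd68 held TTGCNNAA once and TGACTCA at 2 places, which do not overlap GAGGAA, and the other 6 promoters held none of these 4. A match of letters is a description and does not show that a factor binds.

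Siglec1 (ENSMUSG00000027322, GRCm38 chromosome 2, 131069220 to 131086765, minus strand), the sialic acid receptor CD169 of macrophages around erythroblasts, was the only one of the 6 low genes above 2 RPKM in the input. The sorted levels were 0.0752, 0.0276, 0.0362, 0.103, 0.240, 0.0928 and 0.173 RPKM for clusters 1 to 7, from 5 to 41 reads each, and the input had 2.85 RPKM from 410 reads. The ratio to the input ran from 0.00970 in cluster 2 (exact binomial 95% interval 0.00313 to 0.0228) to 0.0843 in cluster 5 (0.0522 to 0.129). The sorted libraries were thus 11.9-fold to 103-fold below the input, and cluster 7 was 16.5-fold below, where Csf1r, Cd68 and Lyz2 were at 0.650, 0.605 and 0.650 times the input.

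Marco (ENSMUSG00000026390, GRCm38 chromosome 1, 120474538 to 120505024, minus strand), a scavenger receptor with a collagen-like stalk, was not detected in clusters 2, 3 and 4, where 0 counts allow up to 0.0615, 0.0575 and 0.0479 RPKM (3 counts per library). Clusters 1, 5, 6 and 7 had 0.129, 0.364, 0.0492 and 0.219 RPKM, from 6, 9, 3 and 14 reads, and the input had 1.42 RPKM from 55 reads. By the same limit of 3 counts, and with the input taken at its measured level, it was at least 23.0-fold, 24.6-fold and 29.6-fold lower than the input in clusters 2, 3 and 4. With the counting error of the input included, the exact intervals of the ratio reached 0.0552, 0.0516 and 0.0430.

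Spic (ENSMUSG00000004359, GRCm38 chromosome 10, 88674772 to 88685015, minus strand) was at 0.194, 0.0411, 0.240, 0.0960, 0.548, 0.164 and 0.525 RPKM in clusters 1 to 7 and at 1.58 in the input, from 4 to 67 reads per sorted library and 122 in the input. Timd4 (ENSMUSG00000055546, GRCm38 chromosome 11, 46810800 to 46844332, plus strand) was at 0.247, 0.327, 0.102, 0.0566, 0.394, 0.174 and 0.125 RPKM, from 4 to 18 reads, and at 1.35 in the input, from 59 reads. Both were highest in cluster 5 among sorted libraries, the shallowest library, and at these counts the interval of each ratio between neighbours in either order included 1, except for Spic in cluster 7 over cluster 3 (2.19-fold, 1.36 to 3.61).

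Mrc1 (ENSMUSG00000026712, GRCm38 chromosome 2, 14229392 to 14332057, plus strand), the mannose receptor, was at 0.460, 0.384, 0.226, 0.285, 0.819, 0.253 and 0.741 RPKM in clusters 1 to 7 and at 1.19 in the input. Clusters 5 and 7 formed the higher pair, which did not differ beyond counting error (1.11-fold, 0.818 to 1.48), and cluster 7 was 1.61 times cluster 1 (1.21 to 2.16). Cd163 (ENSMUSG00000008845, GRCm38 chromosome 6, 124304656 to 124330527, plus strand), the haemoglobin scavenger receptor, was at 0.287, 0.116, 0.182, 0.146, 0.342, 0.584 and 0.876 RPKM and at 0.636 in the input. In cluster 7 it was at 1.38 times the input (1.03 to 1.85), and with total counts no other of the 6 low genes had a sorted library above the input. With TMM, Cd163 was at 1.16, 1.89 and 2.13 times the input in clusters 5, 6 and 7, and Mrc1 at 1.49 times in cluster 5.

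To place such low levels, 991 olfactory receptor genes, whose products act mainly in the nose, were taken as a background in each library. Their 95th percentile was 0.0467, 0.0169, 0.0793, 0.0298, 0.245, 0.00892 and 0.0174 RPKM in clusters 1 to 7, and 2.76 RPKM in the input. At least 3 reads were counted on 7.16%, 3.03%, 15.0%, 5.35%, 26.3%, 1.82% and 3.63% of them in clusters 1 to 7, and on 65.8% in the input. The input library thus had reads on genes of this kind far more often than any sorted library. Of the 42 values of the 6 low genes in sorted libraries, 37 exceeded the 95th percentile of their library, those below it being Marco in clusters 2, 3 and 4 and Siglec1 in clusters 3 and 5. In the input Siglec1 was at 2.85 RPKM against 2.76, with an interval (2.58 to 3.14) that included 2.76, and the other 5 were below it. The levels of all 6 low genes in the input were therefore not beyond the range of olfactory receptor genes there, and their fall from the input to the sorted libraries cannot be told apart from that of such a background.

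**Figure D4:**
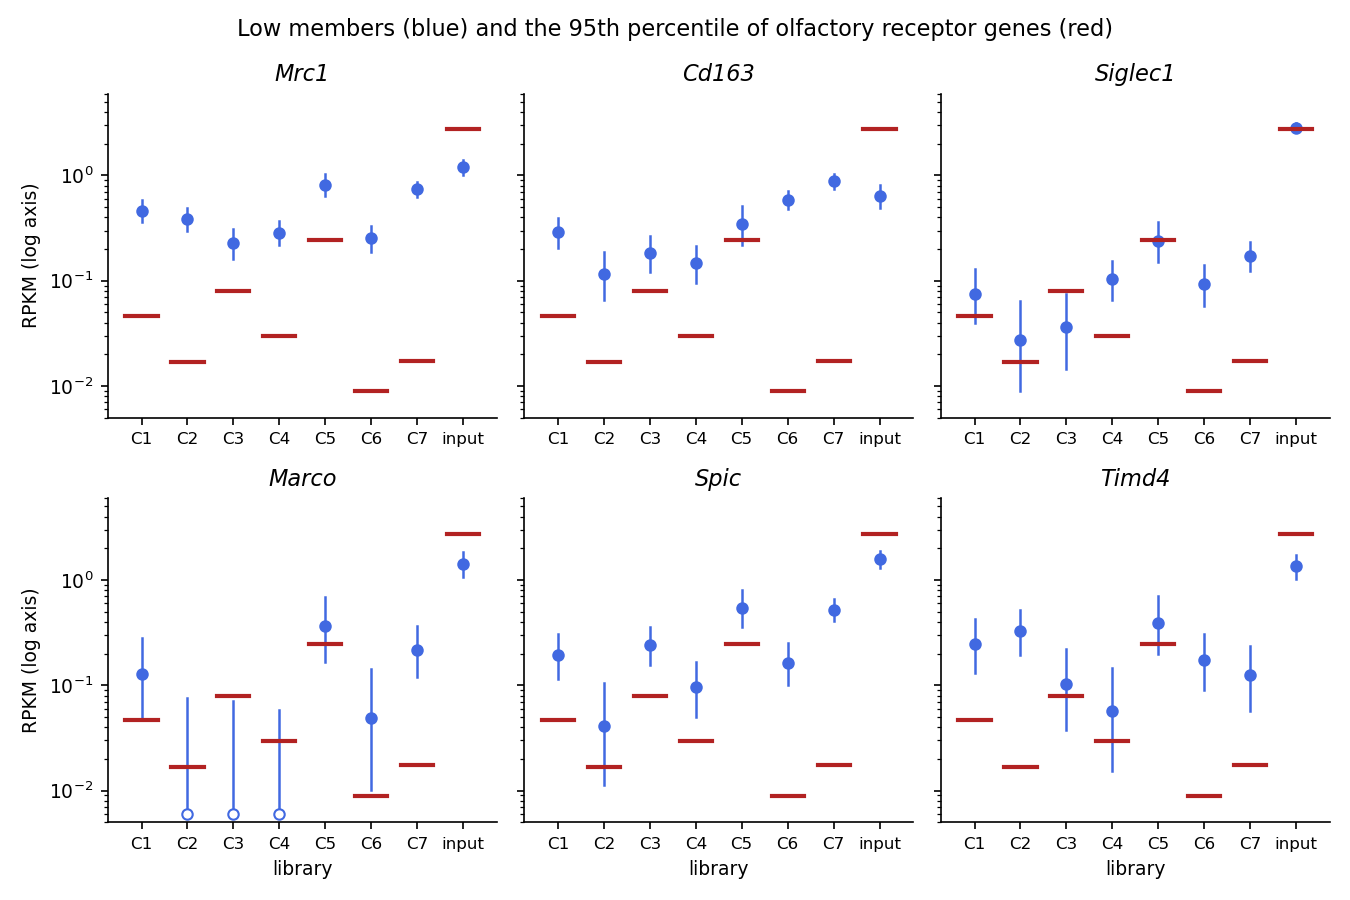
RPKM on a log axis of the 6 low genes in each library (blue points with 95% Poisson intervals, open points for 0 counts) and the 95th percentile of 991 olfactory receptor genes (red lines). In the input the red line stands at 2.76 RPKM, inside the interval of Siglec1 and above the other 5 genes, whereas 37 of 42 sorted values lie above their line.

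Set against the input, Csf1r, Cd68 and Lyz2 were lower in clusters 1 to 6 with total counts, of which 4 of the 18 calls were lost with TMM, and Hmox1 was higher in 2 sorted libraries. The 7 comparisons share the single input library, and a gene could be called where RPKM was above 2 in 1 of the 2 libraries. Only Csf1r, Cd68, Lyz2, Hmox1 and Siglec1 reached this, Siglec1 in every comparison and Csf1r in cluster 2 through the input alone, so that they had to differ. Of these 5 genes, 4, 5, 4, 4, 4, 4 and 1 were more than 2-fold lower in RPKM + 1 in clusters 1 to 7, where 41.6%, 47.9%, 46.5%, 45.5%, 61.0%, 53.6% and 39.4% of all genes tested were lower. These were Csf1r, Cd68, Lyz2 and Siglec1, with Hmox1 added in cluster 2, and Siglec1 alone in cluster 7. Hmox1 was more than 2-fold higher than the input in cluster 3, at 2.32-fold (2.198 to 2.45), and in cluster 4, at 5.92-fold (5.64 to 6.23), where 4.33% and 4.68% of genes tested were higher. In clusters 1, 2, 5, 6 and 7 none of the 5 genes was called higher, with 5.53%, 7.06%, 3.21%, 3.82% and 3.43% of genes. In all, 26 of the 35 pairs of a gene and a library that could be called were lower and 2 higher, and 18 were lower among pairs whose sorted library was itself above 2 RPKM, which leaves out Siglec1 and Csf1r in cluster 2.

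Csf1r was 8.52-fold, 12.8-fold, 9.28-fold, 5.26-fold, 10.8-fold, 4.17-fold and 1.54-fold below the input in clusters 1 to 7. Cd68 was below it by 7.57-fold, 7.31-fold, 8.17-fold, 2.92-fold, 5.23-fold, 4.39-fold and 1.65-fold, and Lyz2 by 6.95-fold, 6.14-fold, 10.9-fold, 3.09-fold, 4.73-fold, 3.92-fold and 1.54-fold. Cluster 7 was therefore the nearest to the input for all 3 genes, as it was in the median over all genes. That median, as log2 of the ratio of RPKM + 1, was -0.67, -0.93, -0.87, -0.85, -1.24, -1.11 and -0.60 in clusters 1 to 7, against -1.10, -1.34, -1.18, -1.25, -0.79, -1.17 and -0.66 over the 10 genes whatever their level. Scaling by TMM in place of total counts shifted log2 levels by -0.14, 0.01, 0.02, 0.04, 0.44, 0.37 and -0.05 in clusters 1 to 7 and by -0.68 in the input. It left 14 pairs lower and 5 higher, all of the latter Hmox1. None of the 14 was Siglec1, whose level in the input was then below 2 RPKM. The calls lost were also those of Hmox1 in cluster 2, Csf1r in cluster 6, at 0.493 times the input in RPKM but not past 2-fold in RPKM + 1, Cd68 in cluster 4, at 0.561 times, and Lyz2 in clusters 4 and 6, at 0.529 and 0.524 times. TMM also brought Csf1r, Cd68 and Lyz2 in cluster 7 to 1.00, 0.934 and 1.00 times the input.

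Among 15 other macrophage markers, 9 had RPKM above 2 in a sorted library and 8 of these differed by more than 2-fold between libraries, as did 70.6% of all genes tested. Of the 9, 4 were highest in cluster 7 with total counts, Adgre1, C1qa, C1qb and C1qc, beside 25.3% of all genes tested. With TMM, C1qa and C1qc were highest in cluster 5, at 7.50 and 6.76 RPKM against 6.77 and 5.93 in cluster 7. With total counts the interval of C1qa in cluster 7 over cluster 5 included 1 (1.26-fold, 0.969 to 1.66). Mertk and Folr2 were highest in cluster 6 and Aif1 in cluster 2. Adgre1, which encodes F4/80, was at 0.751, 0.620, 0.637, 1.62, 1.70, 1.78 and 4.53 RPKM in clusters 1 to 7 and at 5.502 in the input, highest in cluster 7 like Csf1r. C1qa, a subunit of complement C1q, was at 2.86, 4.06, 1.49, 1.65, 5.54, 2.03 and 7.001 RPKM and at 3.29 in the input, at 1.68 times the input in cluster 5 (1.197 to 2.37) and 2.13 times in cluster 7 (1.62 to 2.82), while the intervals of clusters 1 and 2 included 1 (0.869 times, 0.616 to 1.23, and 1.23 times, 0.903 to 1.69). Clusters 3, 4 and 6 were below the input for C1qa, at 0.453 (0.301 to 0.674), 0.503 (0.347 to 0.726) and 0.618 times (0.435 to 0.878), and with TMM cluster 6 was above it, at 1.27 times. C1qb, another subunit of C1q that was picked after its values were seen, was at 8.09, 4.28, 3.93, 3.84, 9.74, 5.17 and 16.0 RPKM and at 3.87 in the input. Its level in cluster 7 was 4.13 times the input, beside 0.605 to 0.650 times for Csf1r, Cd68 and Lyz2. Gas6, which encodes a ligand that bridges phosphatidylserine to receptors of macrophages and is also made by stromal cells, was the most abundant and the most variable of the list. It was at 144, 45.9, 91.2, 308, 88.3, 16.9 and 177 RPKM and at 81.8 in the input, highest in cluster 4 like Hmox1. Axl, a receptor for Gas6 that stromal cells make too, was at 141, 22.1, 155, 73.3, 28.6, 11.4 and 96.1 RPKM and at 71.2 in the input. These 2 genes carried most of the summed level of the list. With total counts the sum was 167%, 47.7%, 141%, 215%, 79.0%, 28.2% and 173% of the input in clusters 1 to 7, and without them, a choice made after their values were seen, it was 72.9%, 63.4%, 45.01%, 51.3%, 92.1%, 75.1% and 145%. With TMM the full sum in cluster 5 was above the input, at 197 against 116 RPKM. Without Gas6 and Axl, clusters 1, 2, 5 and 6 then also turned from below the input to above it. Vsig4, a complement receptor of resident macrophages, was at 0 counts in clusters 2, 3 and 5, and Clec4f, a lectin of liver macrophages, in clusters 2, 3, 4 and 7. Of the scavenger and lectin receptors, 9 of 12 passed 2 RPKM and all 9 differed by more than 2-fold. The most abundant was Colec12, from 37.2 to 133 RPKM with a median of 74.2, and the widest was Scara5, from 1.13 in cluster 6 to 57.3 in cluster 3. Stab2, a receptor of sinusoidal endothelium, stayed between 0.102 and 0.453 RPKM. Of 6 genes of apoptotic cell clearance or of the same gene families, only Mfge8, which encodes a secreted bridge to dying cells, passed. It ran from 38.5 RPKM in cluster 5 to 483 in cluster 6, while Timd2, a relative of Timd4, was at 0 counts in clusters 2, 3, 5, 6 and 7.

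All 11 genes of myeloid signalling and transcription passed and differed by more than 2-fold, 9 of them highest in cluster 7. Of 41804 genes with a count in any library, 12360 were above 2 RPKM in a sorted library and so tested. Of all genes tested, 70.6% differed by more than 2-fold and 25.3% were highest in cluster 7. Tyrobp, an adaptor of myeloid receptors, was at 254, 240, 144, 295, 374, 179 and 452 RPKM in clusters 1 to 7 and at 720 in the input. It was 1 of the 9 with total counts, but with TMM it was highest in cluster 5, at 506 against 437 RPKM in cluster 7. Cybb, the oxidase subunit of phagocytes, had the widest range in RPKM + 1, from 10.1 in cluster 3 to 71.5 in cluster 7. Cebpb, a transcription factor of myeloid and stromal cells and the most abundant of the list, ran the other way against the input. It was at 456, 276, 332, 648, 216, 219 and 595 RPKM in clusters 1 to 7 and at 9.50 in the input, so that the sorted libraries were at 22.7 to 68.3 times the input.

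Of 14 genes of haem and iron handling, 13 passed 2 RPKM in a sorted library and 10 of these differed by more than 2-fold, close to the 70.6% of all genes tested. Fth1, the ferritin heavy chain and the most abundant of them, was at 3093, 1595, 2824, 4429, 2585, 1642 and 3696 RPKM in clusters 1 to 7 and at 4490 in the input. It was highest in cluster 4 and lowest in clusters 2 and 6, as Hmox1 was, and r between the 2 genes was 0.908 over the 7 sorted libraries. Slc11a1, a metal ion transporter of phagosomes, had the widest range, from 2.33 in cluster 5 to 19.9 in cluster 7, and Hpx, which encodes the haem carrier haemopexin, was at 0 counts in cluster 5. Counts of haemoglobin genes made up 1.10%, 1.01%, 0.556%, 0.171%, 5.21%, 0.120% and 0.561% of clusters 1 to 7 and 0.0523% of the input, the lowest share of all. Whether haem bears on the level of Hmox1 was not tested. With Gas6, from the list of other macrophage markers, Hmox1 had r = 0.822. With the stromal genes Cxcl12, Dcn and Col1a1 it had r = 0.791, 0.724 and -0.48. Cxcl12, which encodes the chemokine that retains blood stem cells, was at 139 RPKM in cluster 4 and at 5.04 in cluster 6. Whether the same cells held these transcripts and Hmox1 was not tested.

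**Figure D5:**
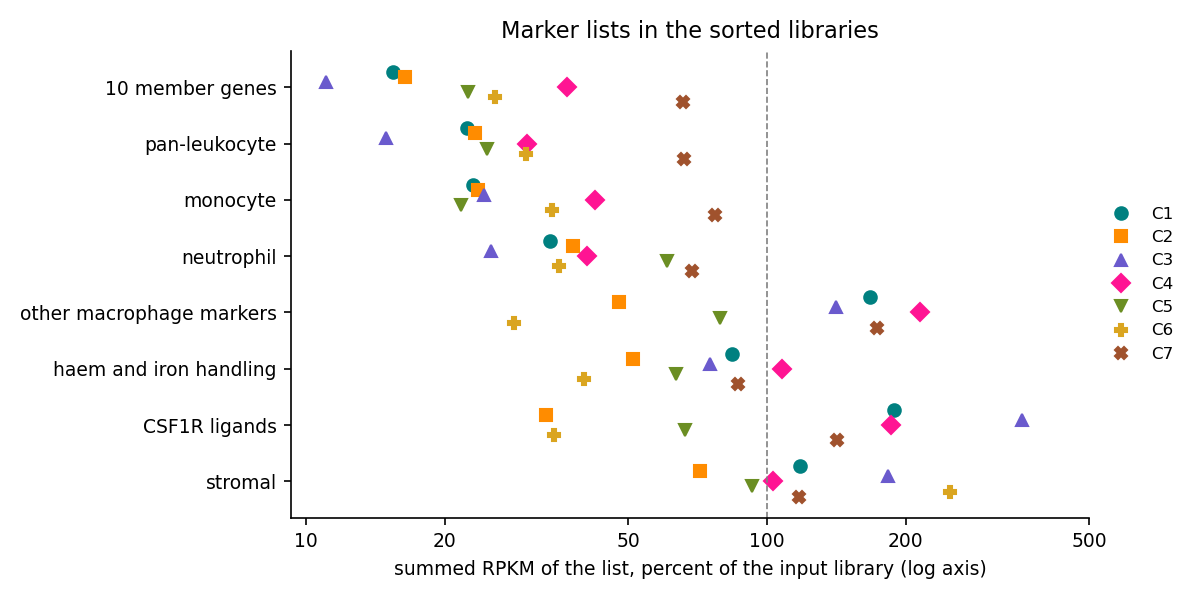
Summed RPKM of 8 gene lists in each sorted library as a percent of the input, on a log axis (C1 to C7 are clusters 1 to 7, and the dashed line is 100%). Scaled by total counts, the 10 macrophage genes, a sum that is mostly Lyz2, run from 11.1% in cluster 3 to 65.7% in cluster 7. Beside them, pan-leukocyte genes run from 14.9% to 66.01%, and other macrophage markers from 28.2% to 215%, or from 45.01% to 145% without Gas6 and Axl.

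Most neutrophil and monocyte markers were, like Csf1r, Cd68 and Lyz2, highest in cluster 7. Of 12 neutrophil genes, 12 passed 2 RPKM, 11 differed by more than 2-fold, 8 were highest in cluster 7 and 9 lowest in cluster 3, against 70.6%, 25.3% and 8.11% of all genes tested. Their sum was 25.2% to 68.8% of the input with total counts. With TMM it was above the input in clusters 5 and 7, at 37255 and 30148 against 28395 RPKM, and below it in the other sorted libraries. S100a9, a calcium-binding protein of neutrophils and the most abundant, ranged from 4834 RPKM in cluster 3 to 11033 in cluster 5. Mmp8, which encodes neutrophil collagenase, had the widest range, from 16.4 to 193. Elane and Mpo, the elastase and peroxidase of neutrophil precursors, ranged from 94.2 to 478 and from 67.3 to 394 RPKM, both lowest in cluster 1 and highest in cluster 7. All 6 monocyte genes passed and differed, 5 of them highest in cluster 7 and lowest in cluster 3. Cd14, the co-receptor for lipopolysaccharide, was at 126, 119, 60.4, 312, 137, 219 and 585 RPKM in clusters 1 to 7 and at 617 in the input, with r = 0.986 to Lyz2. F13a1, which encodes a subunit of factor XIII, differed from the rest with its highest level, 142 RPKM, in cluster 3. Of 5 dendritic cell genes, Zbtb46 and Siglech passed, with at most 3.01 and 3.34 RPKM. The part of neutrophils and monocytes in the levels of Lyz2 and Cd68 was not tested.

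Osteoclasts, bone-resorbing relatives of macrophages that also need CSF1R, had 4 of 8 markers above 2 RPKM, and all 4 differed by more than 2-fold. The shares of all genes tested to set beside the counts of these lists are 70.6% past 2-fold and 25.3% highest in cluster 7. Ctsk, which encodes the collagen-degrading cathepsin K and is also made by stromal cells, ranged from 111 to 454 RPKM and Acp5 from 12.8 to 52.0, both lowest in cluster 6 and highest in cluster 7. Mmp9 had the widest range in RPKM + 1, from 8.59 to 130 RPKM, and Calcr, the calcitonin receptor that defines mature osteoclasts, was at 0 counts in clusters 1 to 4. Among lysosome genes, 9 of 10 differed by more than 2-fold, again beside 70.6%. Cd63, the most abundant of them, stayed between 828 and 1631 RPKM, and Gpnmb was the widest, from 0.305 in cluster 6 to 29.9 in cluster 7. Erythroid genes were highest in cluster 5 in all 7 cases matched, beside 4.73% of all genes tested, with Hba-a1 from 593 to 30376 RPKM and Hba-a2 from 234 to 12695. Both were below this in the input, at 267 and 110 RPKM, and the summed level of erythroid genes was 231% to 9935% of the input although the gates took cells without Ter119. Endothelial genes were low, with Plvap from 2.99 to 14.7, Tek from 0.328 to 5.31 and Cdh5 from 0.210 to 2.48 RPKM, beside 4.87, 2.07 and 2.14 in the input, and none of the 8 measured was highest in cluster 7. Plvap was above the input in every sorted library except cluster 6. With total counts the sum of the 8 was 28.4% of the input in cluster 6 and 135% in cluster 1. With TMM it was above the input in clusters 1, 2, 3, 4, 5 and 7, at 15.7 to 30.6 against 13.1 RPKM. In cluster 6 it stayed below, at 7.66 RPKM. All 8 stromal genes passed and differed by more than 2-fold, led by Col1a1 from 1962 to 15952 RPKM, and 3 were highest in cluster 7, beside 70.6% and 25.3% of all genes.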

How the data were processed

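RNA was taken from 8 samples, 7 sorted populations and the input. The methods name sorted cells and selection of polyadenylated RNA, whereas the labels name crushed marrow and a larger amount of RNA. Per the methods, reads were trimmed for quality, aligned by TopHat2 to mm9 and quantified in Partek Flow 2.2. The deposited values are raw read counts per Ensembl gene, made by the authors, with exon lengths. Gene positions in the files are those of GRCm38: of 23286 symbols compared with RefSeq, 96.2% began within 10 kb. The counting tool, shared reads and strandedness are not given in the sources used here.

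RPKM was computed from counts, the total count and exon length (pandas 2.3.3, scipy 1.17.1), and called past 2-fold in RPKM + 1 with RPKM above 2. Intervals were exact Poisson for levels and exact binomial for ratios and shares, at 95%. Scaling factors of edgeR 4.0.16 (TMM) and DESeq2 1.42.0 were alternatives. No test was run, and the calculations were checked on simulated data. The most alike genes had RPKM above 2 and at least 50 counts in a sorted library. Members and gene lists were chosen with earlier results of these data known. The text names all members, the ligands, Lyz1, the preset defining markers, each list's most abundant and widest gene and genes at 0 counts, and the 3 genes most like each member above 2 RPKM. Ahsp was not matched, and Bai1 was counted once under its 2 names. Promoters are RefSeq's and coding sequences GENCODE's, the latter with the NCBIM37 genome. No coordinates were converted.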

Additional observations from a re-analysis of the deposited data

How the results depend on the processing

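No paired analysis was possible because there was 1 library per population. Of 642 values recomputed under the alternatives, 465 stayed within counting error or 1.5 times and 177 moved. No called ratio to the input changed direction, but calls were lost. The 26 pairs of gene and library lower than the input became 14 with TMM, 14 with DESeq2's size factors and 14 with a fold above 4, and the 2 higher pairs became 5, 5 and 1. All 7 pairs of Siglec1 were lost with TMM and with DESeq2's factors, since its level in the input became 1.78 and 1.81 RPKM. Alternatives for specificity were added after seeing the data. The 2 genes specific to cluster 7 became 0 with TMM, 0 with DESeq2's factors, 0 with a fold above 4 and 1 with a total that omits the 3 genes filling cluster 5, and the 1 gene specific to cluster 4 became 0 with that total and 0 with a fold above 4. Highest in the input were 5 genes with TMM, 7 with DESeq2's factors and 7 without those 3 genes, in place of 8. With the 95th percentile of olfactory receptor genes in place of RPKM 2, an alternative chosen after seeing the data, 10, 9, 8, 9, 9, 10 and 10 genes passed in clusters 1 to 7 in place of 4, 3, 4, 4, 4, 4 and 4. That level was as low as 0.00892 RPKM in cluster 6, where Marco passed with 3 reads. The share of all genes above it is not given here, so these counts do not set the 10 genes apart. The lowest library of Cd68 became cluster 1 with TMM and with DESeq2's factors. Without the cluster 5 library the highest of Mrc1, Siglec1, Marco and Spic was cluster 7 and that of Timd4 cluster 2. Division by Ptprc, in the report, was also chosen after seeing the data. With 1 library each, spread between replicates is unknown, and at 0 to 159 reads per sorted library the low genes are limited by depth.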
